A study of Mus musculus with 42 samples.

Results

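The nitric oxide and endothelin signalling genes were followed by their probes in aorta and skeletal muscle of mice, in a study whose model of diabetic vessel disease is made with a nitric oxide synthase inhibitor. The members, chosen by gene symbol and not by any measured value, were Nos1, Nos2, Nos3, Edn1, Ednra, Ednrb, Gucy1a3, Gucy1b3, Prkg1 and Ddah1, which are 10 of the 21186 genes with a symbol on the array and are read by 24 probes. Each of 7 groups gave 3 aorta and 3 skeletal muscle arrays, 42 single-colour arrays in all, and the methods state that 3 mice per group were sampled. The healthy group (G) were male C57BL/6 mice. The diabetic group (A) were male KK/Ay mice, a strain with the Ay mutation at the agouti locus that grows obese and diabetic without treatment, so groups A and G differ in strain as well as in disease. The diabetic macroangiopathy group (C) were male KK/Ay mice that for 8 weeks ate a high-fat diet and drank water with L-NAME at 0.2 mg/ml. The 4 treated groups were mice of that model that received the SHENQI compound (B), its yangyinyiqi part (D), its huoxue part (E) or rosiglitazone (F) by gavage for 8 weeks. Groups G, A and C received saline by gavage for 8 weeks. The methods give the age of the mice as 18 to 20 weeks. L-NAME and the diet were given together, so their effects cannot be told apart, and whether L-NAME went on during treatment is not clear from the methods.

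Nitric oxide is made from arginine by 3 synthases: Nos1, the neuronal form, which skeletal muscle fibres also hold in quantity, Nos2, the form induced in inflammation, and Nos3, the endothelial form. L-NAME is an arginine analogue that blocks these enzymes, and Ddah1 breaks down asymmetric dimethylarginine, the methylated arginine that blocks them in the body. Nitric oxide from the endothelium reaches the smooth muscle of the vessel wall and binds soluble guanylate cyclase, a dimer of the subunits encoded by Gucy1a3 and Gucy1b3. The cyclic GMP that this enzyme makes activates the protein kinase encoded by Prkg1, and the muscle relaxes. Edn1 encodes endothelin-1, a constrictor peptide of the endothelium. It acts on the receptor Ednra of smooth muscle, which mediates contraction, and on Ednrb, which in endothelium mediates nitric oxide release and clearance of the peptide. In whole tissue, fewer cells of a type and less RNA per cell cannot be told apart.

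Values are log2 intensities after background correction and quantile normalization over all arrays, averaged over the probes of a gene, and a difference of 1 is a doubling of the signal. They compare a gene with itself across samples, never one gene with another. A probe was called above background where the scanner software marked it as well above background. By that mark 9 of the 10 members could be measured on all 42 arrays. The arrays held 21952 to 27090 symbol probes above background in aorta and 18784 to 24423 in muscle. The defining markers fit the labels: 8 skeletal fibre markers were at a log2 sum of 19.80 to 20.13 on all muscle arrays, and 7 smooth muscle markers at 15.71 to 18.14 on 20 of the 21 aorta arrays. The aorta of healthy replicate 1 stood apart, with a smooth muscle sum of 13.13, and the main member results that rest on it are given with and without it. Aorta samples also held other tissue in varying amount, since their skeletal fibre sum ran from 11.81 to 19.24 and their cardiac muscle sum from 9.30 to 15.87. They held fat as well, with a fat cell sum of 15.88 to 18.29 and a brown fat sum of 16.78 to 19.09. The brown fat marker Ucp1 read 14.98 to 17.51 in aorta and 5.29 to 8.93 in muscle.

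The synthases were separated by tissue. The level of Nos1 was 6.52 ± 0.55 (SD, n = 21) in aorta and 9.24 ± 0.29 (SD, n = 21) in skeletal muscle, 6.59-fold higher in muscle as the mean of 2 probes, of which 1 was above background on only 2 of the 21 aorta arrays. The log2 difference of -2.72 ran from -4.34 to -2.09 under other processing. Its aorta arrays ran from 5.95 to 8.18 with a median of 6.32, and its muscle arrays from 8.83 to 9.99 with a median of 9.19, so that no aorta array reached a muscle array. Nos2 was not well above background on any of the 42 arrays, although its probe is spotted 10 times on each, and so no level or difference is given for it. Nos3 was measured on all arrays and was 1.55-fold higher in aorta, at 9.17 ± 0.58 (SD, n = 21) against 8.53 ± 0.29 (SD, n = 21), with ranges of 8.17 to 10.61 and 8.10 to 9.18 that overlap. The probes of the 3 synthases are shown to make plain what was read. Each is 60 bases long and written 5′ to 3′, and capitals in Nos2 and Nos3 mark the 27 bases identical between them in their best ungapped alignment of 56 bases.
Nos1: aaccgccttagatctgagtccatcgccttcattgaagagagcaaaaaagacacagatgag
Nos2: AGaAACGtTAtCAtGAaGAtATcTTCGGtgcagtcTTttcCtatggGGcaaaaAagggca
Nos3: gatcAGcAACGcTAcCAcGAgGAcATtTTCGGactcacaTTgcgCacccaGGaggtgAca
The file headers place them on mm9, plus strand, at chr5:118402834-118403807 for Nos1, chr11:78773160-78773219 for Nos2 and chr5:23889636-23889695 for Nos3. The Nos1 probe covers 974 bases of the genome, so its 60 bases are split across an intron. The identity of 48.2% between the Nos2 and Nos3 probes came with a longest shared run of 5 bases. Among the 20 other pairs of the probes printed here and 1 of Ednra, best alignments of at least 30 bases reached 51.4%, over fewer bases, and the longest shared run was 9. The Nos1 probe shown was above background on 2 of 21 aorta arrays and on all 21 muscle arrays. In the 5 groups where 0 of 3 aorta arrays were above background, its signal was at least 3.04- to 4.19-fold higher in muscle. The other Nos1 probe was above background on all arrays of both tissues, at 7.46 ± 0.86 in aorta and 11.14 ± 0.35 in muscle (SD, n = 21 each), a 12.9-fold difference.

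The cyclase subunits were the members with the largest excess in aorta: Gucy1a3 stood at 9.40 ± 0.69 in aorta and 7.76 ± 0.15 in muscle (SD, n = 21 each), 3.13-fold higher in aorta, and Gucy1b3 at 9.21 ± 0.66 and 7.78 ± 0.16 (SD, n = 21 each), 2.69-fold higher. Healthy aorta replicate 1 read 7.27 for Gucy1a3 and 7.40 for Gucy1b3, below the muscle ranges of 7.44 to 8.01 and 7.52 to 8.03, and the other 20 aorta arrays lay above those ranges. Edn1 was 1.53-fold higher in aorta, at 7.80 ± 0.35 against 7.19 ± 0.22 (SD, n = 21 each). Prkg1 ran the other way and was 1.68-fold higher in muscle, at 6.88 ± 0.35 in aorta and 7.63 ± 0.26 in muscle (SD, n = 21 each). Of its 4 probes, 2 were above background on only 3 and 1 of the aorta arrays and on 0 muscle arrays, and the tissue difference ran from -1.68 to -0.46 under other processing. The receptors differed little: the aorta minus muscle difference was -0.02 for Ednra (95% interval -0.16 to 0.11, adjusted p = 0.762 in limma) and 0.01 for Ednrb (-0.17 to 0.18, adjusted p = 0.948). For Ddah1 it was -0.23 (-0.58 to 0.12, adjusted p = 0.226). After adjustment 6 of the 9 measured members passed, with adjusted p from 7.03e-18 for Nos1 to 4.07e-05 for Nos3, while 77% of all 16107 genes tested did, so that a call between these tissues is not particular to the members.

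Other genes of the pathway were split in the same way. Of 60 tested genes of 3 lists without the members (nitric oxide synthesis and its control, cyclic GMP synthesis and effects, and endothelin production and signalling), 38 passed as higher in aorta and 13 as higher in muscle, with a median difference of 0.52 against 0.03 over all genes. As examples chosen after their values were seen, the myosin light chain kinase Mylk (2.17), the cyclic GMP phosphodiesterase Pde5a (1.15) and the endothelial scaffold Cav1 (1.01) were higher in aorta on the log2 scale. Cav3 (-3.03), the caveolin of muscle fibres, was higher in muscle.

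The groups were then ordered by their mean for each measured member in each tissue. Neighbours in such an order are the closest groups by construction. Of these, 0 of 54 pairs of neighbours in aorta and 1 of 54 in skeletal muscle had arrays that did not overlap. Groups farther apart in the order did separate, as given with each comparison. How often the arrays of other genes separate was not counted, so non-overlap here and below describes the readings and is not a test. The pair of neighbours that did not overlap was the lowest and second lowest group for muscle Ddah1, healthy at 6.84 ± 0.36 and diabetic at 7.64 ± 0.21 (SD, n = 3 each). In aorta the healthy mean was the lowest of the 7 for Gucy1a3, Gucy1b3, Prkg1, Ednra and Edn1, and the highest for Nos3. For Prkg1 and Edn1 being lowest rests on healthy replicate 1. Healthy replicates 2 and 3 read 6.82 and 6.74 for Prkg1, where the SHENQI mean was 6.74. For Edn1 they read 7.97 and 7.60, where the macroangiopathy mean was 7.67. In muscle the healthy mean was the lowest for Prkg1, Ddah1 and Ednra, and the highest for Nos3, Edn1 and Ednrb. The diabetic mean was the highest in aorta for Nos1, Edn1, Ednra and Ednrb.

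**Figure D1:**
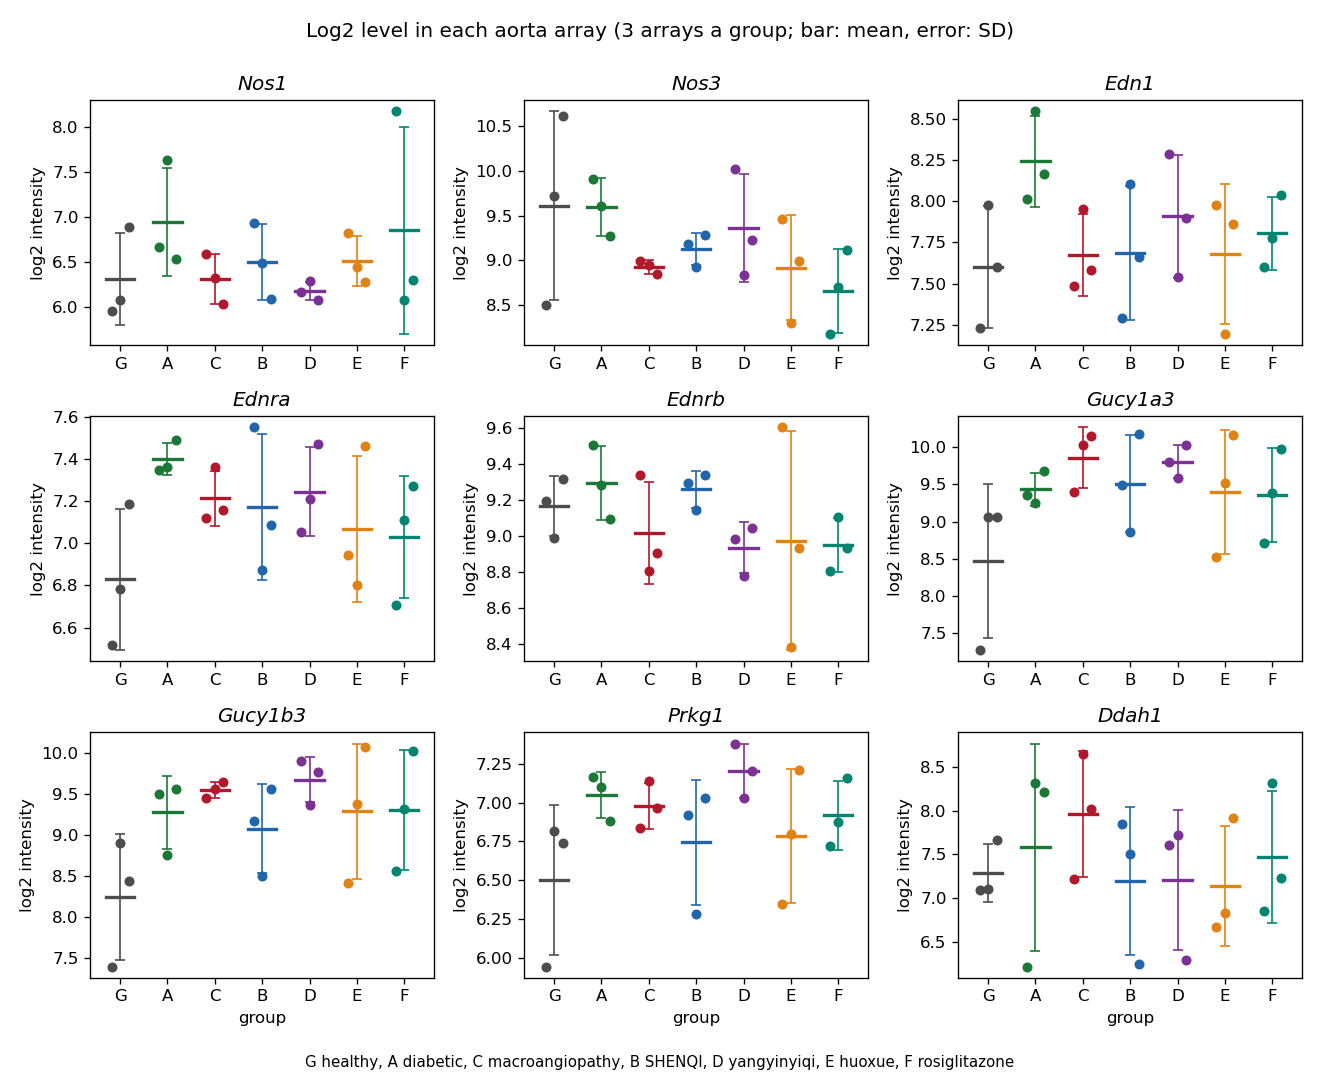
Log2 intensity of the 9 measured members (y axis) on each of the 21 aorta arrays, by group (x axis); points are arrays, thick bars group means and error bars the SD of 3 arrays. Healthy replicate 1 is the lowest point for Gucy1a3 (7.27), Gucy1b3 (7.40) and Prkg1 (5.94), and the 3 macroangiopathy points for Nos3 lie between 8.84 and 8.99, below all 3 diabetic points.

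**Figure D2:**
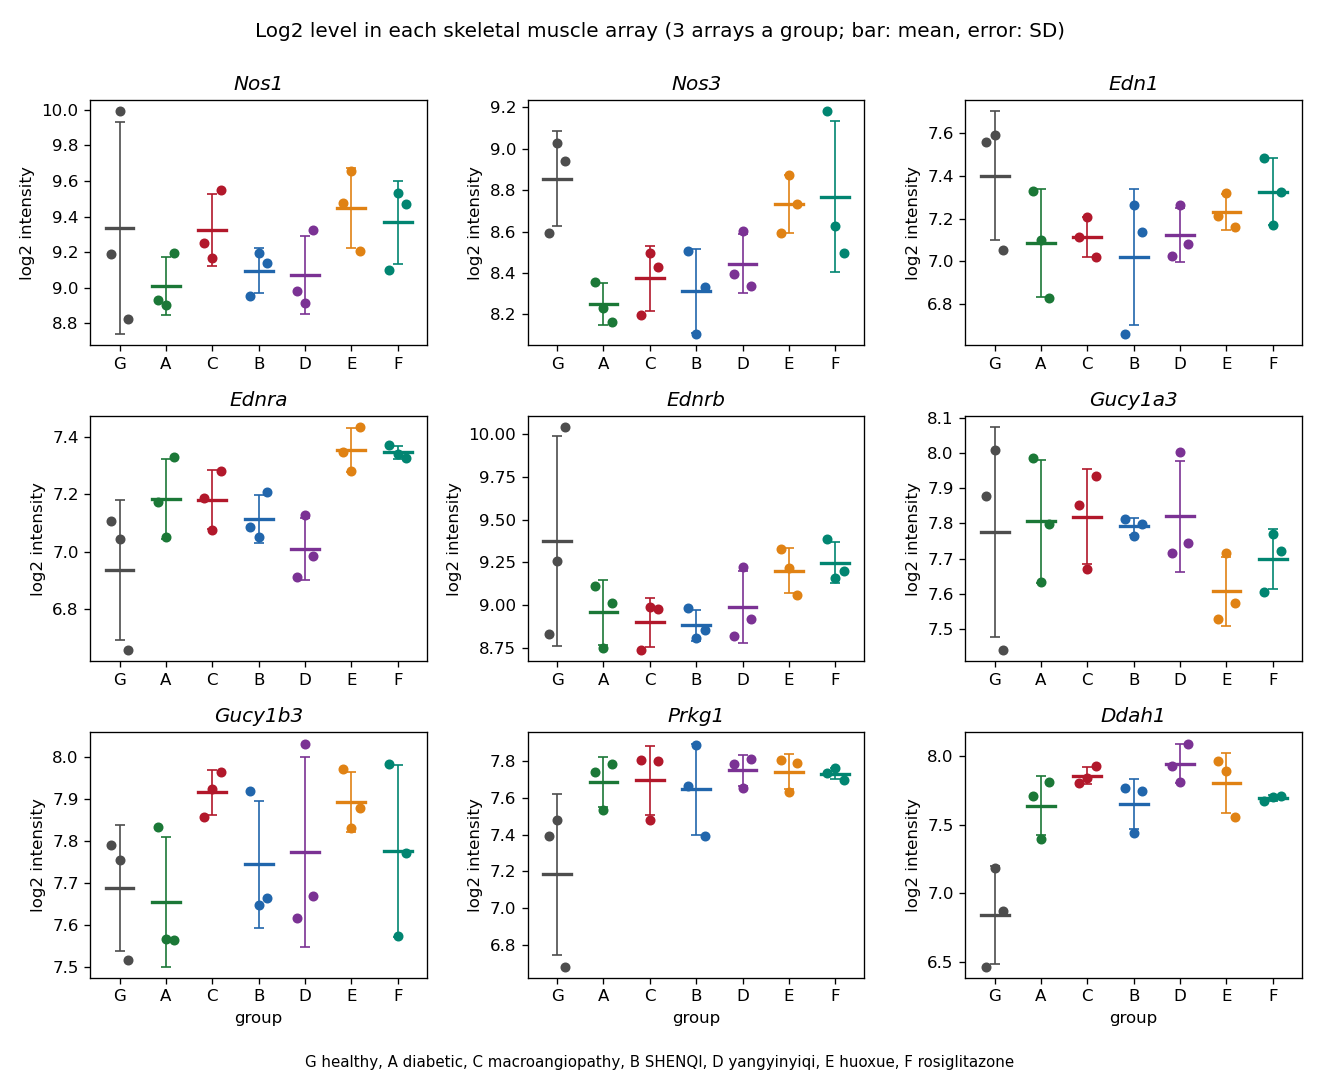
Log2 intensity of the same members (y axis) on each of the 21 skeletal muscle arrays, by group (x axis), drawn as in the plot for aorta. For Ddah1 the 3 healthy points lie between 6.47 and 7.19, below the points of all other groups, the lowest of which is 7.40.

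Diabetic against healthy mice (A vs G) shows what the members do in KK/Ay mice before diet and inhibitor. Over both tissues, Ednra was higher by 0.41 on the log2 scale (SE 0.14) and Prkg1 by 0.53 (SE 0.18) in the diabetic mice. At the study's own threshold, P below 0.05 with no adjustment, limma called these 2 of 9 members and 22.1% of all genes. With adjustment it called 0 of 9 members and 4.5% of all genes, and the adjusted p of Ednra and Prkg1 was 0.121 for each. From its probes above background alone Prkg1 was 0.98 higher (adjusted p = 0.0718). Without healthy aorta replicate 1 Ednra was 0.32 and Prkg1 0.40 higher (adjusted p = 0.167 and 0.161). Nos3 was then also below 0.05 before adjustment, at -0.59 (adjusted p = 0.0784). Prkg1 read 5.94, 6.82 and 6.74 in healthy and 7.17, 7.10 and 6.89 in diabetic aorta, and 7.39, 7.48 and 6.68 in healthy and 7.74, 7.53 and 7.78 in diabetic muscle, so that it overlapped in neither tissue. The median member difference was 0.41, against 0.03 over all genes.

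In aorta the ligand and receptor of contraction had higher readings. Ednra read 6.52, 6.78 and 7.19 on the 3 healthy arrays and 7.35, 7.37 and 7.49 on the diabetic arrays, without overlap (difference 0.57, SE 0.22, adjusted p = 0.400). Edn1 read 7.23, 7.97 and 7.60 on the healthy and 8.01, 8.55 and 8.17 on the diabetic arrays, again without overlap (difference 0.64, SE 0.26, adjusted p = 0.419). In the same arrays the endothelial marker sum was 0.49 and the smooth muscle sum 1.98 higher in the diabetic group, both with overlap, and the nerve and Schwann cell sum 1.88 higher without overlap. Over the 21 aorta arrays Ednra correlated at r = 0.617 with the smooth muscle and 0.666 with the nerve sum (0.371 and 0.431 without the 2 farthest arrays). The part of these cells was not tested. In aorta alone 0 of 9 members passed after adjustment, where 0.213% of all genes did. Before it 2 of 9 (Edn1 and Ednra) had P below 0.05, and 11.6% of all genes did. Without healthy aorta replicate 1 the differences were 0.42 for Ednra and 0.45 for Edn1 (adjusted p = 0.396 and 0.453). With a term for slides 1, 3 and 11, fitted on all arrays, Ednra was 0.64 higher in aorta (adjusted p = 0.0146). Over both tissues that fit gave 0.58 for Ednra and 0.78 for Prkg1. Its healthy muscle level rests on replicate 3 alone, as the other healthy muscle arrays lie on slide 3.

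In skeletal muscle Nos3 was lower and Ddah1 higher before adjustment. Healthy and diabetic muscle arrays share no slide, so group and slide cannot be told apart there. Nos3 read 8.60, 9.03 and 8.94 on the healthy arrays and 8.36, 8.23 and 8.16 on the diabetic arrays, lower by 0.61 (SE 0.16, adjusted p = 0.0836). Ddah1 read 6.47, 7.19 and 6.87 on the healthy and 7.71, 7.40 and 7.81 on the diabetic arrays, higher by 0.80 (SE 0.22, adjusted p = 0.0928). Neither set of arrays overlapped, yet 0 of 9 members passed in muscle after adjustment, where 4.28% of all genes did. Before it 2 of 9 (Nos3 and Ddah1) had P below 0.05, and 22.2% of all genes did. With the slide term the diabetic arrays are set against healthy replicate 3 alone. The differences were then -0.69 for Nos3, 0.77 for Ddah1 and -1.09 for Ednrb (-0.42 without the term), and Prkg1 was higher. Macrophage markers (5 genes) summed to 12.16 to 13.66 on the healthy and 11.86 to 12.12 on the diabetic muscle arrays, without overlap, and their part in these differences was not tested. Edn1 was 0.64 higher in aorta and 0.32 lower in muscle, and the test of the difference between the tissues gave 0.96 (SE 0.34, adjusted p = 0.581).

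Macroangiopathy against diabetic mice (C vs A) sets KK/Ay mice with the high-fat diet and the synthase inhibitor against KK/Ay mice without them. In aorta the endothelial pair Nos3 and Edn1 was lower in the mice given L-NAME, with P below 0.05 before adjustment, while no member had P below 0.05 over both tissues. Nos3 read 9.91, 9.60 and 9.27 on the diabetic aorta arrays and 8.99, 8.95 and 8.84 on the macroangiopathy arrays, a difference of -0.67 (SE 0.18, unadjusted p = 0.00924, adjusted p = 0.976 in limma). Edn1 read 8.01, 8.55 and 8.17 against 7.48, 7.95 and 7.58, a difference of -0.57 (SE 0.20, adjusted p = 0.976). The arrays of the 2 groups did not overlap for either gene, but the adjusted p shows no call. The 10 endothelial markers were 0.27 lower in summed level in the same comparison, with overlapping ranges of 13.33 to 13.76 in group C and 13.53 to 14.14 in group A. The sums of fat (0.34), skeletal fibre (1.35) and cardiac muscle markers (2.17) were also lower and that of macrophages (0.40) higher in group C, all with overlap. The part of these cells in the lower Nos3 and Edn1 was not tested. The 3 macroangiopathy aorta arrays lie on slide 6 and the diabetic ones on slides 1 and 4, so in C vs A group and slide cannot be told apart, and the muscle arrays share no slide either.

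In muscle the same 2 genes differed by 0.12 (SE 0.10) for Nos3 and 0.03 (SE 0.13) for Edn1. The difference between the tissues was -0.79 for Nos3 (SE 0.22, unadjusted p = 0.00403, adjusted p = 0.772) and -0.60 for Edn1 (SE 0.25, adjusted p = 0.969). Gucy1b3 in muscle read 7.83, 7.57 and 7.57 on the diabetic arrays and 7.86, 7.93 and 7.97 on the macroangiopathy arrays, 0.26 higher (SE 0.10, adjusted p = 0.655), and Nos1 was 0.31 higher there (SE 0.13, adjusted p = 0.689). Over both tissues 0 of 9 members and 5.12% of all genes had P below 0.05 before adjustment, and 0 members and 0% of all genes passed after it. In aorta alone 2 of 9 members and 3.8% of all genes passed before adjustment, and after it 0 members and 0% of all genes did. In muscle alone 2 of 9 members and 7.24% of all genes passed before adjustment, and after it 0 members and 0.0146% of all genes did. The 95% interval of the aorta difference was -1.11 to -0.23 for Nos3 and -1.04 to -0.10 for Edn1.

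Macroangiopathy and healthy mice (C vs G) differ in strain, diet and inhibitor together. Their arrays share no slide in either tissue, so in C vs G group and slide cannot be told apart. Over both tissues Ddah1 was higher by 0.84 (SE 0.23), Gucy1b3 by 0.77 (SE 0.26), Prkg1 by 0.50 (SE 0.18) and Ednra by 0.32 (SE 0.13) in the macroangiopathy mice. Without adjustment limma called these 4 of 9 members, with P below 0.05, and 24.3% of all genes. From its probes above background alone Prkg1 was 0.96 higher (adjusted p = 0.0678). With adjustment it called 0 members and 5.19% of all genes, and the smallest adjusted p was 0.0532, for Ddah1. C vs G and A vs G share the 6 healthy arrays, so the values of Ednra and Prkg1 in them are not independent of each other.

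In muscle Ddah1 was the only member called after adjustment. It read 6.47, 7.19 and 6.87 on the healthy and 7.81, 7.84 and 7.93 on the macroangiopathy arrays, a rise of 1.01 on the log2 scale (SE 0.20, adjusted p = 0.0465), and 3.35% of all genes passed in that tissue. Both of its probes were higher, by 1.26 and 0.78. The call was lost without healthy muscle replicate 1 or any 1 of the 3 macroangiopathy arrays. With a term for slides 1, 3 and 11 the difference was 0.98. Slide 3 holds 2 of the 3 healthy muscle arrays, so the healthy level in that fit rests on replicate 3 alone. The macrophage marker sum was 12.16 to 13.66 on the healthy and 11.88 to 12.10 on the macroangiopathy muscle arrays, again without overlap, and over the 21 muscle arrays their sum correlated with Ddah1 at r = -0.777 (-0.538 without the 2 farthest arrays) and with Prkg1 at r = -0.86 (-0.394 without them). Their part in the Ddah1 and Prkg1 differences was not tested. Ednrb read 8.83, 9.26 and 10.04 on the healthy and 8.73, 8.99 and 8.98 on the macroangiopathy muscle arrays. Its difference was -0.48, and -1.14 with the same slide term, which sets it against the healthy reading of 10.04 alone. Over both tissues the fit with the slide term gave 0.52 for Ednra, 0.74 for Prkg1 and -0.58 for Ednrb, with the same limit in muscle. Nos3 was lower in muscle by 0.48 (SE 0.16, adjusted p = 0.153), without overlap of the arrays. The probe of Ddah1 on mm9 at chr3:145516152-145516211, plus strand, is shown because this gene carries the call.
Ddah1: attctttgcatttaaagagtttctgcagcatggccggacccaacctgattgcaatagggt

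In aorta both cyclase subunits were higher than in healthy mice. Gucy1a3 read 7.27, 9.06 and 9.07 on the healthy and 9.40, 10.03 and 10.15 on the macroangiopathy arrays, a difference of 1.39 (SE 0.53, adjusted p = 0.246). Gucy1b3 read 7.40, 8.91 and 8.44 against 9.45, 9.56 and 9.65, a difference of 1.31 (SE 0.38, adjusted p = 0.183). Neither gene's arrays overlapped. In aorta these 2 of 9 members and 18.6% of all genes passed before adjustment, while after it 0 members and 0.26% of all genes did. Without healthy aorta replicate 1 the differences were 0.79 for Gucy1a3 (adjusted p = 0.156) and 0.88 for Gucy1b3 (adjusted p = 0.0823). In muscle the differences were 0.04 (SE 0.18) and 0.23 (SE 0.13), and the difference between tissues was 1.35 for Gucy1a3 and 1.08 for Gucy1b3 (adjusted p = 0.396 and 0.339). Leaving out that array also moved Nos3, which over both tissues went from -0.58 (adjusted p = 0.216) to -0.82 (adjusted p = 0.0350). Ednra went from 0.32 to 0.24 and was no longer below 0.05 before adjustment (unadjusted p = 0.0692). On the remaining aorta arrays the fat (-0.965) and brown fat (-0.636) sums were lower in group C. Those of macrophages (1.206), smooth muscle (1.443) and nerve (1.582) were higher, all 5 without overlap. The endothelial sum (-0.015) and those of skeletal fibres and cardiac muscle overlapped. The part of these cells was not tested.

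Gucy1a3 and Gucy1b3 varied together across aorta arrays, with r = 0.938 over the 21 arrays, which share tissue dissection, and r = 0.228 over the 21 muscle arrays. Both followed the smooth muscle markers of the sample: over the 21 aorta arrays the log2 sum of 7 smooth muscle markers correlated at r = 0.949 with Gucy1a3, 0.952 with Gucy1b3 and 0.881 with Prkg1, and without the 2 farthest arrays at 0.866, 0.948 and 0.743. That marker sum was 13.13 to 16.80 in healthy aorta and 17.47 to 17.95 in macroangiopathy aorta, a difference in means of 2.50 without overlap, and 1.98 higher in diabetic than in healthy aorta with overlap. Without healthy replicate 1 these differences were 1.44 and 0.92. Nerve and Schwann cell markers (6 genes) were also higher in both KK/Ay groups, by 1.88 in A and 1.86 in C, without overlap with healthy aorta. The part of smooth muscle or nerve content in the cyclase differences was not tested. The sum of 10 endothelial markers correlated at r = 0.672 with Nos3 and 0.707 with Edn1 (0.612 and 0.683 without the 2 farthest arrays). Nos3 correlated as closely with the fat cell sum (r = 0.68, 0.63 without the 2 farthest) and inversely with the macrophage sum (r = -0.647). With the brown fat sum its r was 0.62 (0.473 without the 2 farthest). Nos1 in aorta correlated at r = 0.735 with the skeletal fibre sum (0.494 without the 2 farthest arrays).

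**Figure D3:**
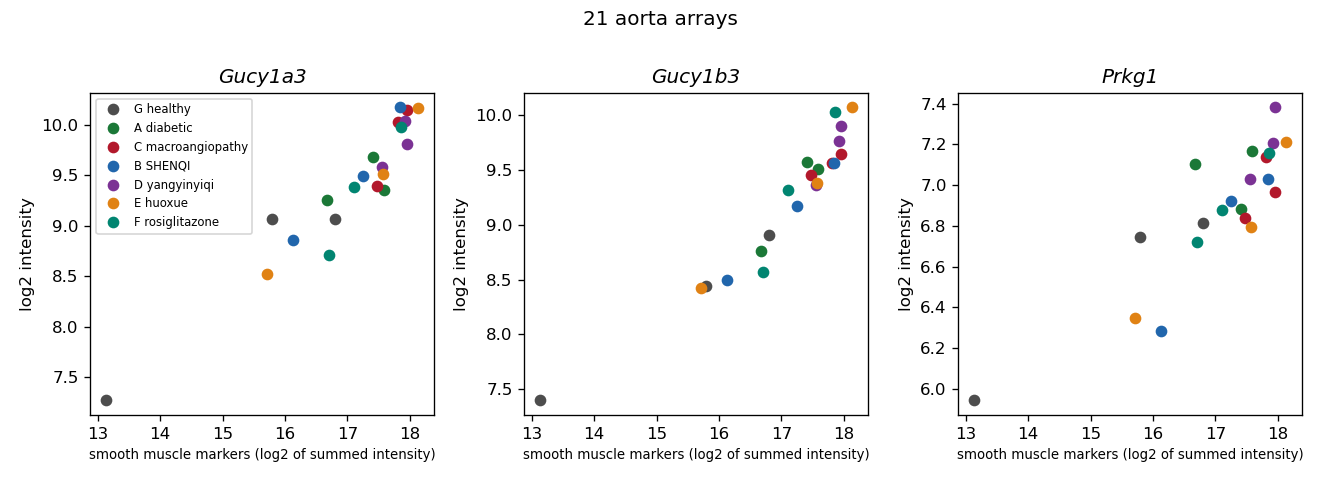
Log2 intensity of Gucy1a3, Gucy1b3 and Prkg1 (y axes) against the log2 summed intensity of 7 smooth muscle markers (x axes) on the 21 aorta arrays, coloured by group. Healthy replicate 1 is the point at 13.13, and the other 20 arrays lie between 15.71 and 18.14.

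The cyclase subunit probes and promoters are shown because these 2 genes varied together and are neighbours. RefSeq now names them Gucy1a1 and Gucy1b1 and, on GRCm38.p6, places them on chromosome 3 from 82092427 to 82145946 and from 82032004 to 82074711, both on the minus strand and 17715 bases apart. The probes lie on mm9, minus strand, at chr3:81898619-81898678 for Gucy1a3 and chr3:81838246-81838305 for Gucy1b3.
Gucy1a3: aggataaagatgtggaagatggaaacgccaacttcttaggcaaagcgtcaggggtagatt
Gucy1b3: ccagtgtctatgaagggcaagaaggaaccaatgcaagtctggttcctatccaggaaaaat
The 4 probes of Gucy1a3 were higher in macroangiopathy than in healthy aorta by 0.54 to 1.78, and the 3 probes of Gucy1b3 by 0.97 to 1.69. The 250 bases before each transcription start follow, from RefSeq on GRCm38.p6, minus strand, at chr3:82145651-82145900 for Gucy1a1 (the upstream of its 2 starts in the promoter table, inside the annotated gene) and chr3:82074712-82074961 for Gucy1b1, with capitals for GGGCGG or CCAAT read on either strand.
Gucy1a1: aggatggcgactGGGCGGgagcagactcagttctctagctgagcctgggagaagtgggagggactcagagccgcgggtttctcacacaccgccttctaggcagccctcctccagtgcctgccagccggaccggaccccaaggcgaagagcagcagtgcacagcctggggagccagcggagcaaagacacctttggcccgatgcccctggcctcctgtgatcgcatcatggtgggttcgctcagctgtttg
Gucy1b1: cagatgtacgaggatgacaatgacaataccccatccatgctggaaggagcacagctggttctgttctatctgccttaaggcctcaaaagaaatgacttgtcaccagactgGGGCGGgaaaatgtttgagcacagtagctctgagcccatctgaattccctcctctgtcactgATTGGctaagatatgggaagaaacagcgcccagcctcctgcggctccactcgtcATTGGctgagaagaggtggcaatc
GGGCGG is present once in each window and in 32.7% of 32851 RefSeq promoter windows of this length. CCAAT is present 2 times in the Gucy1b1 window, on the opposite strand, and 0 times in that of Gucy1a1, and 33.8% of windows hold it. The CArG box, a motif of smooth muscle promoters, was found in 0 of the windows of the 8 members with an entry, and 1.5% of all windows hold it. No match in a window says only that these letters are not there.

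Treatment was compared with the model group given saline by gavage (C), called untreated here because it received no drug. All 4 comparisons share the macroangiopathy arrays. In aorta Ddah1 read 7.22, 8.65 and 8.02 in that model, and the treated groups differed from it by -0.76 (B), -0.75 (D), -0.82 (E) and -0.49 (F), all overlapping it and none called. With the SHENQI compound (B vs C) no member passed the test. The largest difference over both tissues was that of Ddah1, -0.48 (SE 0.29), and that of Gucy1b3 was -0.32 (SE 0.15). In limma 0 of 9 members had P below 0.05 before adjustment over both tissues, in aorta or in muscle. Of all genes 2.71% had P below 0.05 over both tissues, 1.62% in aorta and 2.94% in muscle. After adjustment the share was 0% over both tissues, 0% in aorta and 0% in muscle. Within slide 7, which holds 2 muscle arrays of each group, Gucy1b3 read 7.66 against 7.89 and Ddah1 7.60 against 7.82.

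The yangyinyiqi part (D vs C) likewise moved no member past the test. In aorta Nos3 stood 0.43 higher (SE 0.30, unadjusted p = 0.191) at 10.03, 8.83 and 9.23, against 8.99, 8.95 and 8.84 in the untreated model. A single array, yangyinyiqi replicate 1, lay high for Nos3, and it shares slide 6 with the 3 macroangiopathy arrays. Before adjustment 0 of 9 members had P below 0.05 in limma over both tissues, in aorta or in muscle. Of all genes 3.42% did over both tissues, 1.41% in aorta and 3.83% in muscle. After adjustment the share of all genes was 0% over both tissues, 0% in aorta and 0% in muscle.

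The huoxue part (E vs C) gave the only member called among the treatments. In muscle Nos3 read 8.59, 8.87 and 8.73 against 8.20, 8.49 and 8.43 in the untreated model, a rise of 0.36 (SE 0.11, adjusted p = 0.0416), and 32.2% of all genes passed in that tissue. All 3 huoxue arrays lie on slide 11 and none of the macroangiopathy arrays do, so slide and treatment cannot be told apart there. The fit of all arrays with the slide term gave -0.13 but cannot separate them either. Its slide 11 term rests on the only other array there, rosiglitazone replicate 1, read through slide 3 and healthy replicate 3. The call was also lost without huoxue replicate 2 or 3 or macroangiopathy replicate 1 or 3. The summed levels of endothelial (0.26), skeletal fibre (0.27) and macrophage markers (0.30) were lower and that of cardiac muscle markers (0.69) higher in the huoxue group, all without overlap, and their part was not tested. The endothelin receptor Ednrb was 0.30 higher in muscle (SE 0.11, adjusted p = 0.0610), at 9.33, 9.22 and 9.06 against 8.73, 8.99 and 8.98, without overlap. In aorta 0 members passed before or after adjustment, against 2.08% of all genes before it and 0% after it. Over both tissues limma called 0 of 9 members and 14.3% of all genes before adjustment, and 0 members and 0% of all genes after it.

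Rosiglitazone (F vs C), an agonist of the nuclear receptor PPAR gamma, gave muscle differences of the same size but no call. Ednrb in muscle read 9.39, 9.16 and 9.20 against 8.73, 8.99 and 8.98, 0.35 higher (SE 0.11, adjusted p = 0.0787), and Nos3 read 9.18, 8.63 and 8.50, 0.40 higher (SE 0.18, adjusted p = 0.193). The rosiglitazone arrays did not overlap the untreated arrays for either gene, and they lie on slides 3 and 11. In muscle 1 of 9 members and 29.7% of all genes passed before adjustment, and 0 members and 9.84% of all genes after it. In aorta the cyclase subunits were 0.50 (Gucy1a3, SE 0.37) and 0.25 (Gucy1b3, SE 0.36) lower. There 0 members passed before or after adjustment, against 7.11% of all genes before it and 0% after it. Over both tissues limma called 0 of 9 members and 12% of all genes before adjustment, and 0 members and 0.00632% of all genes after it.

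**Figure D4:**
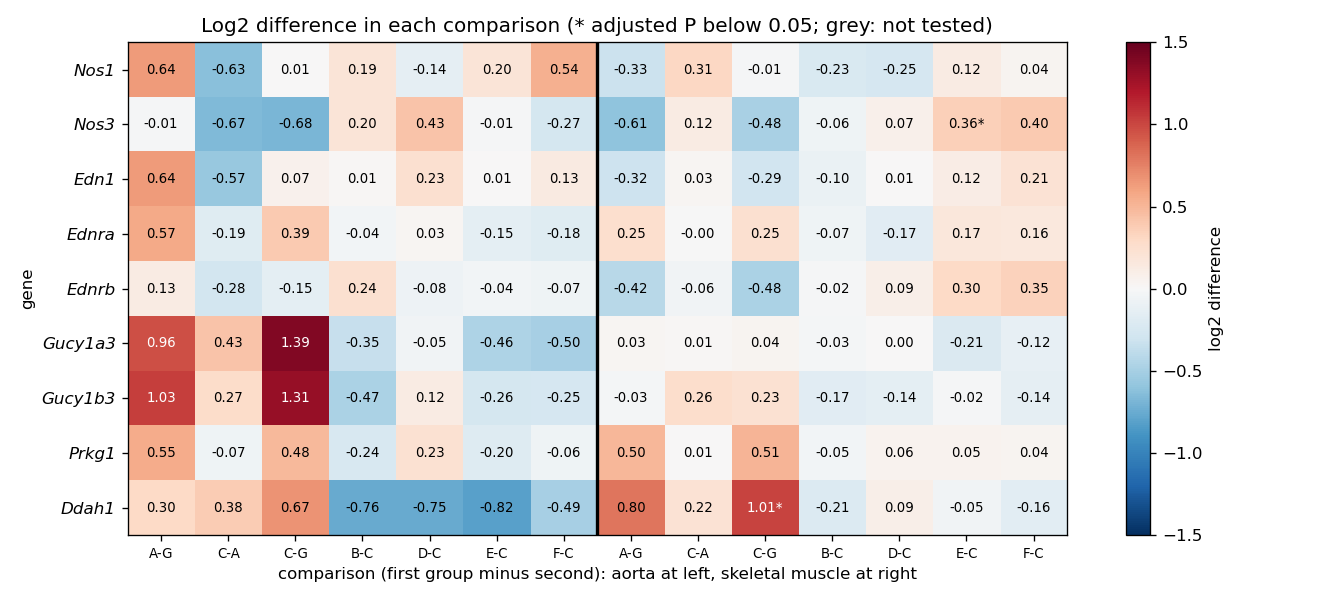
Log2 difference (colour and printed value, first group minus second) of the 9 measured members (rows) in the 7 comparisons (columns), aorta at left and skeletal muscle at right, with a star where the adjusted P value is below 0.05. The 2 stars are those of Ddah1 in muscle for C vs G and of Nos3 in muscle for E vs C.

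Around the members, the other genes of the 3 pathway lists passed in shares of their own. Over both tissues and before adjustment those with P below 0.05 numbered 18 of 57 in A vs G (14 higher, 4 lower), 0 of 58 in C vs A, 21 of 56 in C vs G (16 higher, 5 lower), 0 of 56 in B vs C, 1 of 57 in D vs C, 9 of 56 in E vs C (1 higher, 8 lower) and 11 of 59 in F vs C (2 higher, 9 lower). In A vs G that is 31.6% of the pathway genes against 22.1% of all genes, and in C vs G 37.5% against 24.3%. In E vs C it is 16.1% against 14.3%, and in F vs C 18.6% against 12%. The median difference of the pathway genes in C vs G was 0.23 against 0.03 over all genes. In C vs G the median was 0.36 in aorta, where 20 of 56 had P below 0.05 before adjustment (35.7%, against 18.6% of all genes), and 0.003 in muscle, where 12 of 53 did (22.6%, against 21.9%). The smooth muscle marker sum was 2.50 higher in that aorta comparison, and its part was not tested. Over both tissues the cyclic GMP list gave 11 of 23 in each of A vs G and C vs G (9 higher and 2 lower). The nitric oxide list gave 7 of 26 and 10 of 27, and the endothelin list 2 of 17 and 4 of 15, all of these last higher. In muscle after adjustment 17 of 52 passed in E vs C (32.7%, against 32.2% of all genes) and 6 of 52 in F vs C (11.5%, against 9.84%). Both counts were 0 in the fits of all 42 arrays, without slide terms or with slide as a random block.

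Regulators of the synthases were among the genes named. Ddah2, which breaks down the same inhibitor as Ddah1, was the pathway gene with the largest named difference in C vs G, 1.66 over both tissues (SE 0.35, adjusted p = 0.0216). In muscle it read 9.64, 9.56 and 9.29 on the healthy, 10.88, 10.69 and 10.701 on the diabetic and 10.54, 10.61 and 10.73 on the macroangiopathy arrays. In muscle both KK/Ay groups lay above all healthy arrays, and Ddah2 rose by 1.26 in A vs G (adjusted p = 0.00922) and by 1.13 in C vs G (adjusted p = 0.0176). The healthy muscle arrays share no slide with those of groups A and C, so group and slide cannot be told apart there. In aorta Ddah2 was 1.53 higher in A vs G, with overlap, and 2.19 higher in C vs G, and neither was called (adjusted p = 0.443 and 0.168). Healthy aorta replicate 1 read 8.32, against 10.64 and 9.81 for replicates 2 and 3, and Ddah2 differences without it are not given. With the slide term the Ddah2 difference over both tissues in A vs G was 1.25, where the healthy muscle level rests on replicate 3 alone. The calmodulin gene Calm2, whose product activates the synthases, was higher by 0.96 in A vs G (SE 0.23, adjusted p = 0.0362) and by 1.07 in C vs G (SE 0.18, adjusted p = 0.00796). Rock2, a kinase that keeps smooth muscle contracted downstream of endothelin receptors, was higher by 0.83 (SE 0.20, adjusted p = 0.0375) and by 0.79 (SE 0.21, adjusted p = 0.0486). Healthy aorta replicate 1 read low for Rock2, at 7.23 against 8.55 and 8.03, but not for Calm2, at 12.26 against 12.02 and 12.04. Differences of Rock2 and Calm2 without that array are not given. Prkg2, the other cyclic GMP-dependent kinase, was 0.44 higher in A vs G (SE 0.10, adjusted p = 0.0373).

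After treatment Ddah2 was lower in muscle, at 9.46, 9.39 and 9.40 with huoxue and 9.95, 9.48 and 9.39 with rosiglitazone. It fell by 1.21 in E vs C (SE 0.08, adjusted p = 0.000177) and by 1.02 in F vs C (SE 0.15, adjusted p = 0.0109). With the slide term the differences were -2.03 and -1.49. That term rests in muscle on healthy replicate 3 and rosiglitazone replicate 1, so the part of the slide is not settled by it. Spr, which makes the synthase cofactor tetrahydrobiopterin, differed by -0.72 in E vs C (SE 0.13, adjusted p = 0.173) and -0.86 in F vs C (SE 0.21, adjusted p = 0.164) over both tissues. In muscle alone it fell by 1.02 in E vs C (adjusted p = 0.000712) and by 1.29 in F vs C (adjusted p = 0.0254), and Calm3 fell by 0.60 in E vs C (adjusted p = 0.00452). The treated arrays lie on slides 3 and 11 and none of the macroangiopathy muscle arrays do, so the part of the slide is not settled. The other named genes were Calm3 (-0.41 in E vs C), Vasp, a substrate of the cyclic GMP-dependent kinase (-0.37 in F vs C), and Prmt1, a methyltransferase that makes the dimethylated arginine (-0.22 in D vs C). Over both tissues each was past the unadjusted threshold but not the adjusted one. Over both tissues no other pathway gene passed the unadjusted threshold in C vs A or B vs C. In aorta alone 8 of 57 did in C vs A (4 higher), 14% against 3.8% of all genes. In muscle alone 5 of 54 did (2 higher), 9.26% against 7.24% of all genes.

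The genes whose pattern over the 21 arrays of a tissue was most like that of a member were read as a description, without a test. In aorta Gucy1b3 was most like Tmem47 (r = 0.986), Kcnab1 (0.981) and Fbxo30 (0.98), and Gucy1a3 was most like 4930520O04Rik (0.97), Mcam (0.965) and Rftn2 (0.963). Prkg1 was most like Nexn (0.944), Asph (0.932) and Rnd2 (0.932). Tie1 and Vwf, genes of the endothelial marker list, were among those most like the endothelial members: Nos3 was most like P4ha1 (0.882), Rasip1 (0.862) and Tie1 (0.862), and Edn1 like Bace2 (0.877), Vwf (0.781) and Cxcr7 (0.756). In muscle Nos3 was most like Pim3 (0.872), Cds2 (0.87) and Plxna2 (0.858), Prkg1 like Nudt7 (0.935), Wdr92 (0.92) and Cmbl (0.916), and Ddah1 like Ccdc41 (0.93), C530008M17Rik (0.926) and Ptges2 (0.915).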

How the data were processed

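Total RNA of aorta and skeletal muscle was hybridized to 42 single-colour Agilent mouse arrays on 11 slides, and per the file headers the deposited scanner output gives the intensity of 45018 spots per array, 1639 of them controls, read with Feature Extraction 10.7.3.1 on mm9 annotation. A table of quantile normalized log2 values was also deposited, which was used as an alternative. The median intensity was used, since 34 of the 42 files lack the mean. From it, normexp correction (offset 0), quantile normalization over all arrays, log2, removal of irregular spots and averaging over spots and then probes gave 21186 genes, in limma 3.58.1 with R 4.3.3. Arrays were grouped by their labels alone.

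For a gene to be tested, 1 of its probes had to exceed background on each of the 3 arrays of a group and tissue compared, and genes with a missing value in the arrays fitted were left out. Each comparison was fitted with lmFit and eBayes in both tissues with tissue as a term (12 arrays), in each tissue alone and with an interaction, and aorta was compared with muscle over all arrays. P values were adjusted by the Benjamini-Hochberg method over all genes tested. They measure the spread between the 3 samples of a group and tissue. Fits over both tissues treat aorta and muscle arrays as independent, though both may come from the same mice. A vs G and C vs G share the healthy arrays, and the treatments share the macroangiopathy arrays. The script was tested on simulated data. The number of arrays limits the precision.

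The members, pathway lists, marker lists and alternatives were chosen with earlier results of these data known. Pathway genes were named by rule: in each comparison the 3 with the smallest unadjusted P value below 0.05. The 3 genes most correlated with a member were also named. Alternatives were an offset of 50, the scanner's processed signal with 75th percentile scaling, the authors' values, no filter, a stricter filter, the brightest probe, eBayes with trend and robust options, a replicate block, fits of all 42 arrays without or with slide as a random block or with terms for slides 1, 3 and 11, and each array left out. One more, using only probes above background on at least 21 arrays, was chosen after the data were seen. Promoters were taken from RefSeq.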

Additional observations from a re-analysis of the deposited data

Results flagged for a closer look

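Nos1ap, the gene of an adaptor protein of neuronal nitric oxide synthase and a gene of the pathway list outside the naming rule, chosen after its values were seen, was the only gene followed here whose treatment difference was unlike in the 2 tissues by the interaction test after adjustment. The aorta difference exceeded the muscle difference by 2.299 on the log2 scale in E vs C (adjusted p = 0.000278 in limma) and by 2.165 in F vs C (adjusted p = 0.0200). Its single probe was above background on 0 of the 12 arrays of slides 1, 3 and 11, which include all huoxue and rosiglitazone muscle arrays, and on 18 of the other 30, so these sizes rest on signal not above background. Its signal followed the slides: the 12 arrays of slides 1, 3 and 11 read 2.70 to 4.95, and the other 30 arrays, of all groups and both tissues, read 5.21 to 6.499. When all arrays were fitted with a term for each of these slides, the same differences between tissues were 0.876 and 0.261. In muscle these terms rest on healthy replicate 3 and rosiglitazone replicate 1.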

How the results depend on the processing

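The 6 members called between aorta and skeletal muscle passed under all 52 alternatives, and Ednrb passed under 1 (-0.38 with the slide terms, adjusted p = 0.0291). The counts of members called in the comparisons of groups moved more. The share of all genes called under each alternative is not given, so a changed count cannot be read as particular to the members. In fits of all 42 arrays the other pathway genes called in aorta after adjustment went from 0 to 11 in A vs G and from 0 to 26 in C vs G. In muscle they went from 17 to 0 in E vs C. The member counts in these fits became 2 in A vs G and 3 in C vs G over both tissues after adjustment, 2 in aorta for A vs G and 2 for C vs G, and 0 in muscle for C vs G and 0 for E vs C. With slide as a random block these were 2, 1, 2, 2, 0 and 0, and C vs A over both tissues had 1 before adjustment. With terms for slides 1, 3 and 11 there was 1 in aorta for A vs G, and 1 over both tissues before adjustment in C vs A. Counts of that fit that involve muscle of groups G, E and F are not given, since those muscle levels rest on single arrays. With the processed signal C vs G over both tissues had 2 before and 1 after adjustment, C vs A 1, and in muscle E vs C had 3 and F vs C 1. With the brightest probe C vs G had 1 after adjustment, D vs C 1 before it, and in muscle E vs C had 3 and F vs C 2. The stricter filter gave 1 in C vs G after adjustment, no filter 0 in muscle in C vs G and E vs C, the authors' values 1 in E vs C over both tissues, and an offset of 50 or the trend and robust options 2 in muscle in E vs C.

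With the replicate block C vs G had 1 member after adjustment and 0 in muscle, where Ddah1 had adjusted p = 0.123. No label states that replicate numbers pair samples. Between the 2 groups of a comparison the correlation of deviations ran from -0.544 to 0.598 over 42 same-numbered pairs, above 0.1 in 10. Between aorta and muscle of a group it ran from -0.363 to 0.185 over 21 pairs, above 0.1 in 3. Arrays were therefore not treated as paired, and which aorta and muscle came from the same mouse is not known. Leaving out 1 array at a time gave 2 to 3 members in A vs G over both tissues, 3 to 5 in C vs G, 0 to 1 in C vs A, B vs C, D vs C and E vs C, and 0 to 2 in F vs C before adjustment, 0 to 1 in A vs G and C vs G after it, and 0 to 1 in muscle in A vs G, C vs G and E vs C.

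Directions reversed for Nos3 in muscle in E vs C (-0.13) and Nos1ap in C vs G (-0.226), both with the slide terms, which in muscle rest on single arrays. They also reversed for Calm2 in muscle in E vs C (0.081) and Calm3 in C vs G (-0.039) and E vs C (0.069) with the brightest probe. Calm2 between tissues reversed with the processed signal (-0.194). The causes were not tested. Using only probes above background, Prkg1 was 0.98 higher in A vs G and 0.96 higher in C vs G. The number of arrays limits what small differences could be detected.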
